A study of Mus musculus with 6 samples.

Results

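The 8 genes described here encode the interleukin-1 (IL-1) and IL-18 cytokines, their antagonists and the IL-1 receptor chains. They are Il1a, Il1b, Il1rn, Il1r1, Il1r2, Il1rap, Il18 and Il18bp, chosen by gene symbol, and all 8 have a row among the 14535 of the raw count table. RNA was sequenced from type 2 conventional dendritic cells (cDC2s), antigen-presenting cells of the mouse spleen. The 3 wild-type (WT) libraries were compared with 3 libraries from CD11c-Cre Irf4fl/fl mice, labelled IRF4-deficient, all on the C57BL/6 strain. In the latter, Cre recombinase driven by the CD11c (Itgax) promoter removes the loxP-flanked part of Irf4 in cells that express CD11c. The labels give no age, sex or sort gate, do not say whether a library is 1 mouse or a pool, and name no group with Cre or the floxed allele alone, so these cannot be told apart from loss of Irf4.

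IL-1 alpha and IL-1 beta are inflammatory cytokines that bind the same receptor, IL1R1, which signals once the accessory chain IL1RAP joins it. This system is held in check by the receptor antagonist (the product of Il1rn), which occupies IL1R1 without signalling, and by the decoy receptor IL1R2, which binds IL-1 but has no signalling domain. IL-18 is a related cytokine that drives interferon gamma production by T and NK cells and is neutralised by the secreted IL-18 binding protein (the product of Il18bp). IL-1 beta and IL-18 are made as precursors that caspase-1 cleaves inside inflammasomes, so mRNA levels do not give the amount of active cytokine.

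Library totals ran from 7421605 to 11459920 counts. Irf4, the targeted gene, stood at 65.3 to 90.8 CPM (the usual count relative to library size, with sizes scaled by TMM) in IRF4-deficient and 292 to 345 CPM in WT libraries, so each library matched its label. Irf4 mRNA was thus 3.88-fold lower but not absent, and the counts do not measure IRF4 protein. Of the dendritic cell markers Itgax stood at 1353 to 1757 CPM, Sirpa at 902 to 1031 CPM and Cd74 at 11561 to 14986 CPM over the 6 libraries, while Mgl2 was at 0.557 to 1.38 CPM. The libraries are bulk RNA, in which fewer cells of a type and less RNA per cell cannot be told apart. Whether the replicates are separate animals is not stated, and p-values here reflect only how these 6 libraries varied, which could be technical variation.

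In IRF4-deficient cDC2s the IL-1 antagonist gene Il1rn and the signalling receptor gene Il1r1 rose, by 3.49-fold and 4.68-fold. The cytokine gene Il1b fell 1.66-fold. The decoy receptor gene Il1r2 fell 1.70-fold, close to the threshold. Il18 and Il18bp were near the same level in both genotypes. By edgeR's quasi-likelihood test at a Benjamini-Hochberg adjusted p under 0.05, 4 of the 8 genes were called, 2 higher and 2 lower. Over all 11934 tested genes the same rule called 20.4%, with 9.87% higher and 10.5% lower. The median log2 fold change was 0.079 over the 8 genes and 0.0025 over all tested genes. The libraries of the genotypes did not overlap for 5 of the 8 genes, against 35.6% of all tested genes. The 8 genes were chosen with earlier results of these data known, so these shares are no test of the set.

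**Figure D1:**
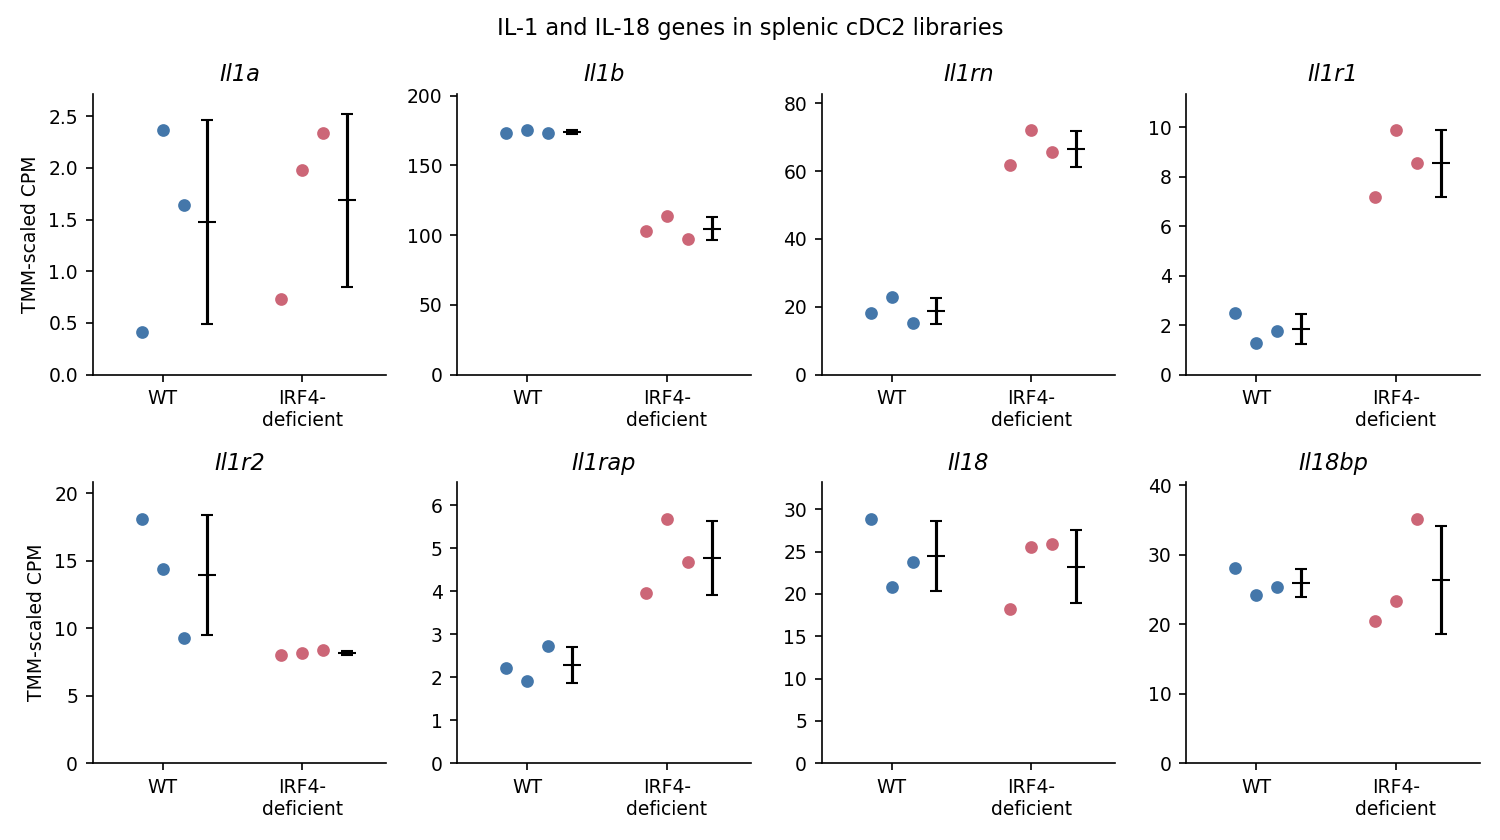
TMM-scaled CPM (vertical axes from 0, a scale for each gene) of the 8 genes in the 3 WT (blue) and 3 IRF4-deficient (red) libraries, ordered by replicate number, with the mean and SD as black bars. Il1rn and Il1r1 are higher in every IRF4-deficient library than in any WT library and Il1b is lower, while the points of Il1a, Il18 and Il18bp overlap.

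The cytokine genes Il1a and Il1b lie next to each other on the minus strand of chromosome 2 (GRCm38), at 129299610 to 129309972 and 129364570 to 129371139, with 54.6 kb between them. Il1rn lies far from them on the plus strand of the same chromosome, at 24336853 to 24351494. The RefSeq promoter table (GRCm38.p6) held entries for all 8 genes, with 11 start sites. The 250 bases before the start are shown for Il1b and Il1a, as neighbours with very different levels, and for Il1rn, which has starts far apart within the gene. Capitals mark matches to TATAAA (the TATA box) or TGANTCA (the AP-1 site).
Il1b, chr2:129371140-129371389, minus strand: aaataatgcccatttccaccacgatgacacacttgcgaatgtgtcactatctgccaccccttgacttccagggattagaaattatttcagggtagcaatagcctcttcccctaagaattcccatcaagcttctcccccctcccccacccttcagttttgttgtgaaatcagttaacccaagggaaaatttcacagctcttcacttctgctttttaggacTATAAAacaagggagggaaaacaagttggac
Il1a, chr2:129309973-129310222, minus strand: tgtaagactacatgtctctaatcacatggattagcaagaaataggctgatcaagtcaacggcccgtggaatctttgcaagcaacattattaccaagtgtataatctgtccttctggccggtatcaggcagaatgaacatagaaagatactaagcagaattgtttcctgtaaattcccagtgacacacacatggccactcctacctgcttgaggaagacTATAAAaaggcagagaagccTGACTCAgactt
Il1rn, first start, chr2:24336610-24336859, plus strand: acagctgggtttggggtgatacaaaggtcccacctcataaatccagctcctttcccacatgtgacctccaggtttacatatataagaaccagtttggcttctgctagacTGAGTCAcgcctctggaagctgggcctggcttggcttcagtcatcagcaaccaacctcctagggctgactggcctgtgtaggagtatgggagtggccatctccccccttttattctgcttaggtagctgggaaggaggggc
Il1rn, second start, chr2:24345041-24345290, plus strand: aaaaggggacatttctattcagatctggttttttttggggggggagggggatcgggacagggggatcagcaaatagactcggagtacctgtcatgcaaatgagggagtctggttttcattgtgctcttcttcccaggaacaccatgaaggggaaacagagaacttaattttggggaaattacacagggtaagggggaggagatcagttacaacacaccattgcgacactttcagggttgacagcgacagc

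Il1b and Il1a each had TATAAA on the gene's strand, at -31 to -26 and -32 to -27 from the start (the base before the start is -1). It occurs on either strand in 12.4% of the 32851 promoters of the same length. Il1a also had TGANTCA at -12 to -6, and the first start of Il1rn had it at -141 to -135, against 6.75% of promoters. The composite site of ETS factors and IRF4 (GGAA, any 2 bases, GAAA) and the core of the interferon-stimulated response element (GAAA, any 2 bases, GAAA) were found on neither strand in these windows of the 8 genes. They occur in 2.30% and 2.98% of promoters, and the windows say nothing of more distant elements. The counts are per gene and do not tell which start was used.

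Il1b, the gene of the main secreted IL-1 cytokine, measured 103, 114 and 97.2 CPM in the IRF4-deficient libraries (replicates 1 to 3, the order used throughout) against 173, 175 and 173 CPM in the WT libraries. The groups did not overlap, and the WT libraries were nearly equal. The mean went from 174 ± 1.20 to 105 ± 8.40 CPM (SD, n = 3 each), and the log2 fold change was -0.73 (standard error, SE, 0.10; adjusted p = 1.57e-05 by edgeR). Its exons share 25 bases with the opposite-strand gene Il1bos. Il1b was the most abundant of the 8 genes per kb of exon in both genotypes. Il1a, whose product also works inside the cell and at its surface, had 8, 16 and 21 counts in IRF4-deficient and 3, 26 and 12 counts in WT libraries. Its groups overlapped and the 95% interval of the fold ran from 0.425 to 2.83 (edgeR adjusted p = 0.921), so at this depth a change of the size seen in Il1b was not detectable. Il1a shares 222 exon bases with a transcript on the other strand (Gm14023), and the strand setting of the counting is not given in the sources used here.

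Il1rn, the gene of the IL-1 receptor antagonist, stood at 61.7, 72.1 and 65.7 CPM in IRF4-deficient libraries and at 18.3, 23.0 and 15.3 CPM in WT libraries. Every IRF4-deficient library was above every WT library. The mean went from 18.9 ± 3.89 to 66.5 ± 5.24 CPM, with a log2 fold change of 1.80 (SE 0.16, edgeR adjusted p = 1.06e-07).

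The antagonist and its competitor Il1b thus moved in opposite directions in the same libraries. The ratio of Il1rn to Il1b raw counts was 0.600, 0.634 and 0.676 in IRF4-deficient and 0.106, 0.131 and 0.0882 in WT libraries. The ratio does not depend on how library sizes are scaled. Its difference on the log2 scale was 2.57, or 5.95-fold, with no overlap between groups. The two-sided exact permutation p was 0.1, the smallest that 3 against 3 libraries allow (adjusted p = 0.15 over the 3 ratios tested), so this test cannot pass 0.05.

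**Figure D2:**
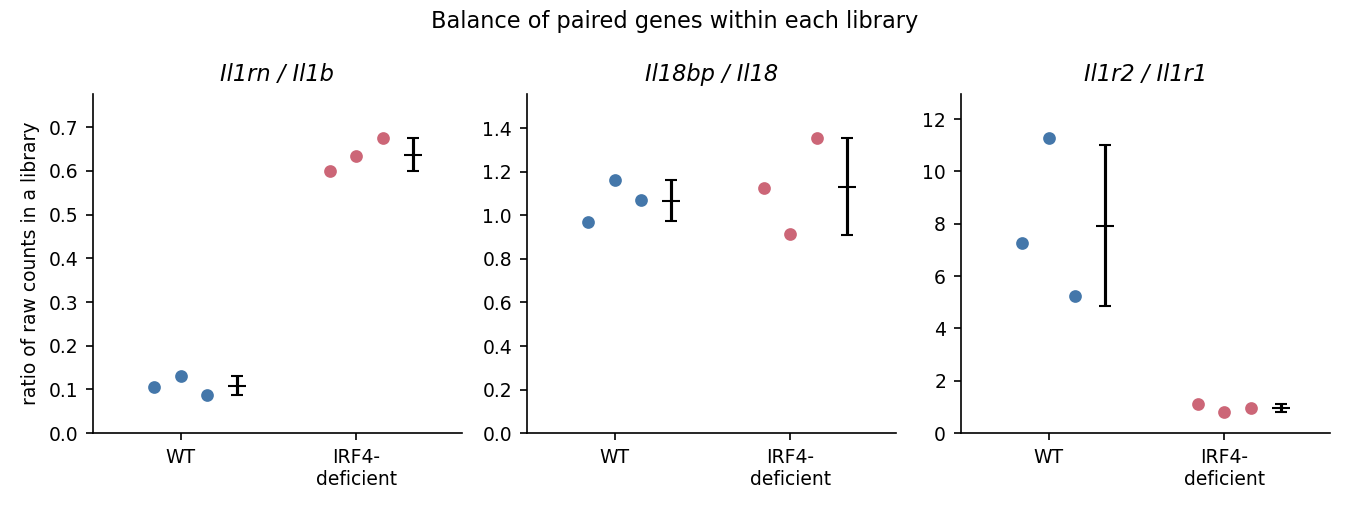
Ratio of raw counts of paired genes within each library (vertical axes from 0) for WT (blue) and IRF4-deficient (red), with the mean and SD as black bars. Il1rn to Il1b lies between 0.600 and 0.676 in IRF4-deficient and between 0.0882 and 0.131 in WT libraries, Il18bp to Il18 overlaps, and Il1r2 to Il1r1 is lower in all 3 IRF4-deficient libraries.

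Il1r1, the gene of the signalling IL-1 receptor, was scarce in WT cDC2s, with 18, 14 and 13 counts or 2.49, 1.27 and 1.78 CPM. It had 78, 80 and 77 counts or 7.18, 9.89 and 8.57 CPM in IRF4-deficient libraries. The groups were well apart, and the mean rose from 1.85 ± 0.611 to 8.55 ± 1.35 CPM, a log2 fold change of 2.23 (SE 0.38, edgeR adjusted p = 0.000264). Il1rap, the accessory chain gene, stood at 3.96, 5.69 and 4.68 CPM in IRF4-deficient and 2.21, 1.91 and 2.73 CPM in WT libraries. The groups did not overlap and the 95% interval of the fold was 1.13 to 3.86, but Il1rap was not called (edgeR adjusted p = 0.0831). Its adjusted p ranged from 0.0778 to 0.24 over 14 alternative fits. Il1rap shares 552 exon bases with an antisense gene (Gm20319), whose reads could not be told apart without a known strand setting.

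Il1r2, the decoy receptor gene, measured 8.01, 8.16 and 8.35 CPM in IRF4-deficient against 18.1, 14.4 and 9.29 CPM in WT libraries. The groups did not overlap, but the WT libraries varied widely and WT replicate 3 lay near the IRF4-deficient level. The log2 fold change was -0.77 (SE 0.26, edgeR adjusted p = 0.046). The call was lost in 9 of 15 alternative fits, among them DESeq2 (adjusted p = 0.0538), limma-voom (0.0697) and 5 of the 6 fits that left out 1 library, all but the one without WT replicate 3 (0.0145). The value without WT replicate 1 was -0.54 (adjusted p = 0.238), the highest p of that range. The fit without the rows Rn45s and Malat1 gave 0.0504, and the one with a replicate block gave 0.0723.

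Il1r2 and Il1r1 head a cluster of 6 receptor genes on the plus strand of chromosome 1, in the order Il1r2 (40074079 to 40125231), Il1r1 (40225080 to 40317257), Il1rl2, Il1rl1, Il18r1 and Il18rap. By these GENCODE coordinates the decoy and the signalling receptor gene start 151 kb apart, whereas RefSeq places the start of Il1r2 at 40086093. Their ratio, Il1r2 to Il1r1 raw counts, was 1.12, 0.825 and 0.974 in IRF4-deficient and 7.28, 11.3 and 5.23 in WT libraries, a 7.83-fold lower ratio (exact permutation p = 0.1, adjusted p = 0.15). Raw counts of these genes are not corrected for exon length, so the ratio compares genotypes and not the genes' levels. Further along, Il18r1, the IL-18 binding receptor chain, rose from 1.94, 2.18 and 3.42 CPM in WT to 6.90, 4.82 and 5.79 CPM (log2 fold change 1.22, SE 0.40, edgeR adjusted p = 0.0356). Its adjusted p ranged from 0.0313 to 0.122 over 14 alternatives, and it was not called without IRF4-deficient replicate 1 (0.121) or 3 (0.0559), without WT replicate 1 (0.1095) or 2 (0.122), or with the replicate block (0.05002). Its partner chain Il18rap stood at 7.82, 10.5 and 6.01 CPM against 5.95, 4.55 and 5.19 CPM, which did not overlap, and was not called (0.177). Il1rl2, the IL-36 receptor gene, stayed at or below 2.34 CPM in each library. Il1rl1, the IL-33 receptor gene, was at 0.368 to 0.989 CPM and too low to test.

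**Figure D3:**
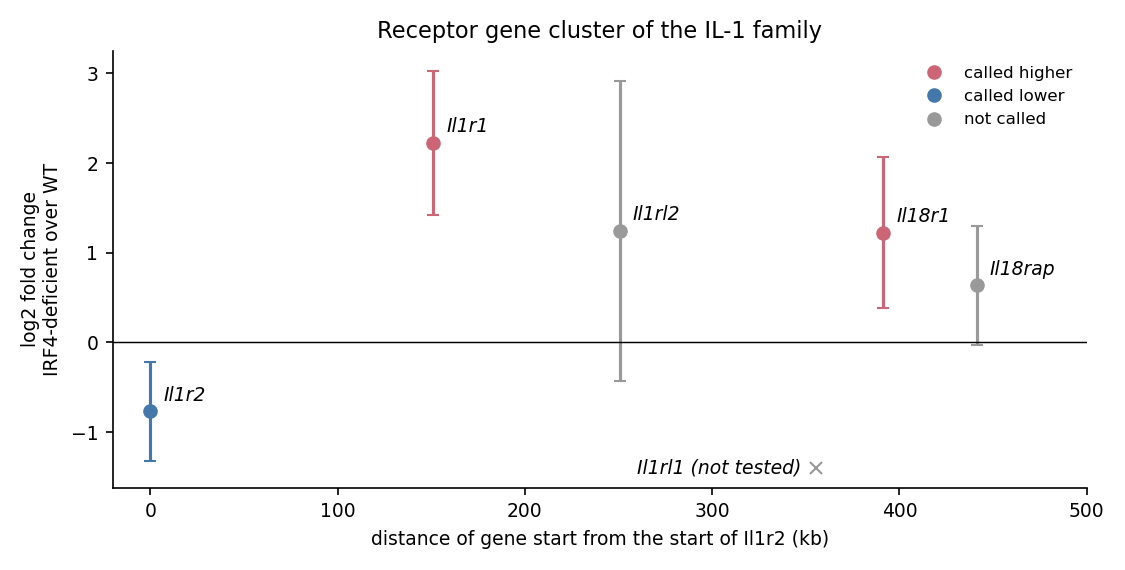
Log2 fold change of IRF4-deficient over WT with its 95% interval (vertical axis) against the distance of each gene's start from that of Il1r2 in kb (horizontal axis) for the receptor cluster of chromosome 1. Il1r1 and Il18r1 were called higher (red), Il1r2 was called lower (blue), Il1rl2 and Il18rap were not called (grey), and Il1rl1 was not tested (cross, placed at no value).

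Il18 stood at 18.2, 25.6 and 25.9 CPM in IRF4-deficient and 28.9, 20.8 and 23.8 CPM in WT libraries. The groups overlapped, and the fold was 0.950 with a 95% interval of 0.718 to 1.26 (edgeR adjusted p = 0.836). Il18bp, the gene of its secreted inhibitor, stood at 20.5, 23.4 and 35.2 CPM against 28.1, 24.2 and 25.4 CPM, a fold of 1.02 (interval 0.766 to 1.35, adjusted p = 0.947). IRF4-deficient replicate 3 was the highest library for Il18bp, and without it the log2 fold change was -0.24 (adjusted p = 0.400, within a range of 0.400 to 0.984 over 15 alternatives). The ratio of Il18bp to Il18 was 1.13 ± 0.222 without IRF4 and 1.07 ± 0.0952 in WT (SD, n = 3 each, exact permutation p = 0.9). Il18bp shares 80 exon bases with Numa1 on the other strand.

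**Figure D4:**
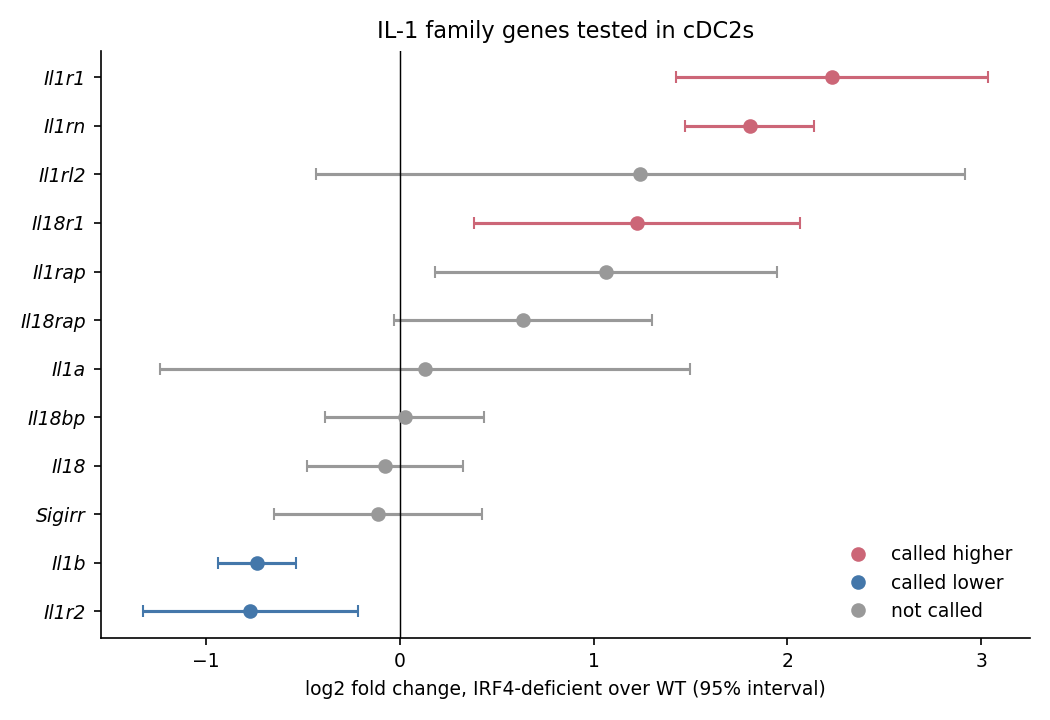
Log2 fold change of IRF4-deficient over WT (horizontal axis, points) with 95% intervals (bars) for the 8 genes and 4 other tested receptor genes of the IL-1 family. Il1r1, Il1rn and Il18r1 were called higher (red), Il1b and Il1r2 lower (blue), and the intervals of the widest grey bars, Il1rl2 and Il1a, belong to the genes with the fewest counts.

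On the scale of CPM per kb of exon (the union of GENCODE M21 exons, which may differ from the authors' gene models), WT cDC2s had the order Il1b at 91.2, Il18 at 23.8, Il18bp at 8.55, Il1r2 at 7.30, Il1rn at 3.41, Il1a at 0.746, Il1r1 at 0.290 and Il1rap at 0.201. In IRF4-deficient cDC2s the order was Il1b at 54.8, Il18 at 22.6, Il1rn at 12.01, Il18bp at 8.71, Il1r2 at 4.28, Il1r1 at 1.34, Il1a at 0.853 and Il1rap at 0.420. The cytokine genes Il1b and Il18 led in both genotypes, and Il1rn went from rank 5 to rank 3. The ranges of Il18bp and Il1r2 overlapped in WT, as did those of Il1rn and Il18bp in IRF4-deficient libraries. Il1a, Il1r1 and Il1rap held the lowest 3 ranks in both genotypes. Neighbours among these 3 overlapped, while the highest of them did not overlap the gene ranked above it (Il1rn in WT, Il1r2 in IRF4-deficient libraries). Exon unions hold the exons of all annotated transcripts and lower the value per kb of genes with many.

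The tested genes nearest in pattern were found by the root mean square distance between log2 CPM profiles, each centred on its mean over the 6 libraries. For Il1rn these were Bhlhe40 (distance 0.12), Spn (0.16) and Nhsl2 (0.17). For Il1b they were Flt3 (0.051), Usp6nl (0.054) and Osbpl8 (0.056), and for Il1r1 Celsr1 (0.13), Cd300lb (0.18) and Emilin2 (0.22). Such profiles are mostly set by the difference between the genotypes.

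The genes around these cytokines were taken from 4 lists. Over all tested genes 9.87% were called higher and 10.5% lower, the shares to set beside the counts below. Of 13 further ligands and receptors of the IL-1 family the table holds rows for 6, of which 4 were tested and 1 rose (Il18r1). Sigirr, which restrains IL-1 and IL-18 receptor signalling, stood at 10.2 ± 2.59 and 11.0 ± 1.43 CPM and was not called. Il1f9, an IL-36 cytokine gene, was listed at 0 to 0.553 CPM.

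Of 21 tested genes for inflammasomes and cytokine release, 6 were called lower and 4 higher (median log2 fold change -0.026). Mefv, the pyrin gene, fell from 222, 284 and 288 CPM in WT to 80.3, 96.2 and 85.8 CPM (log2 fold change -1.60, SE 0.11, edgeR adjusted p = 4.97e-09). Nlrp1b fell 2.80-fold, Nlrp1a 1.78-fold, Nlrc4 1.48-fold and the DNA sensor gene Aim2 1.44-fold. Nlrp1a and Nlrp1b are close relatives that may share reads. Casp1, whose product cleaves the IL-1 beta and IL-18 precursors, fell from 136 ± 6.52 to 103 ± 16.6 CPM (adjusted p = 0.0197), but was not called without IRF4-deficient replicate 3 (0.0607) or WT replicates 2 (0.0842) or 3 (0.0612), within a range of 0.012 to 0.0842. Nlrp3, the sensor most studied for IL-1 beta release, averaged 108 CPM without IRF4 and 111 CPM in WT, the pore-forming Gsdmd 130.3 and 131 CPM, and neither was called. The NLRC4-linked sensor genes Naip2, Naip5 and Naip6, relatives that may share reads, had log2 fold changes of 0.034, -0.17 and -0.24 and were not called. The adaptor gene Pycard stood at 46.2 ± 4.99 and 36.7 ± 2.85 CPM and was not called (0.109).

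The 4 genes of this list that rose were Casp8 (1.28-fold), Txnip (1.29-fold), the calpain gene Capn2 (1.39-fold) and Ninj1 (2.19-fold), which ruptures the membrane of dying cells. Ninj1 stood at 6.35, 7.79 and 13.4 CPM against 3.87 to 4.37 CPM in WT. Its adjusted p of 0.0217 became 0.154 without IRF4-deficient replicate 3, 0.0639, 0.0626 and 0.0533 without WT replicates 1, 2 and 3 and 0.0566 with limma-voom (range over 15 alternatives 0.0101 to 0.154). Capn2 had an adjusted p of 0.00556, and of 0.0506 without WT replicate 2, the highest of its alternatives. The number called higher was 2 without WT replicate 2.

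Of 20 tested genes for signalling below the receptors, 4 were called higher and 1 lower, with a median log2 fold change of 0.032. Over all tested genes 20.4% were called in either direction. Peli2, a ubiquitin ligase gene of the IRAK complex, rose from 3.18, 1.18 and 1.91 CPM to 16.7, 13.3 and 12.9 CPM (7.05-fold, edgeR adjusted p = 6.51e-06). Myd88, the adaptor shared by IL-1, IL-18 and Toll-like receptors, rose 1.48-fold from 52.2 ± 5.36 to 77.4 ± 3.42 CPM. Nfkb1, an NF-kB subunit gene, rose from 451 ± 22.8 to 675 ± 23.0 CPM. Irak3, which lacks kinase activity and dampens the pathway, rose 2.01-fold with an adjusted p of 0.0296, but not without IRF4-deficient replicate 2 (0.179), WT replicates 2 (0.0952) or 3 (0.117), or with limma-voom (0.05015), over a range of 0.0237 to 0.179. Chuk, the IKK alpha gene, fell 1.63-fold, while Tab2, at 461 and 450 CPM, Irak1, at 223 and 191 CPM, and Peli1, at 181 and 212 CPM, were not called. Irak1 was called higher without IRF4-deficient replicate 2 (adjusted p 0.0368, against 0.109 with all libraries). The number called lower was 2 without IRF4-deficient replicate 3 or WT replicate 1, where Traf6 was added (adjusted p 0.0216 and 0.0297, against 0.0542 with all libraries, and 0.0216 to 0.209 over its alternatives).

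Of 13 tested genes induced through NF-kB, by IL-1 receptors but also by many other signals, 3 were called lower and 1 higher, with a median log2 fold change of -0.10. Tnfaip3, the A20 gene that restrains NF-kB, fell 1.87-fold from 216 ± 24.4 to 116 ± 14.01 CPM, and Nfkbiz fell 1.76-fold from 367 ± 70.4 to 209 ± 12.7 CPM. Birc3 fell 1.22-fold (edgeR adjusted p = 0.0195), but was not called without IRF4-deficient replicate 2 (0.076) or WT replicate 2 (0.0765), the highest of its range from 0.0136. Tnip1 was called higher (1.27-fold, adjusted p = 0.0383), but only the fit without IRF4-deficient replicate 2 kept that call among the 6 that left out 1 library; the others gave 0.0562 and 0.0995 without IRF4-deficient replicates 1 and 3 and 0.0632, 0.121 and 0.13 without WT replicates 1, 2 and 3 (range over alternatives 0.0287 to 0.13). WT replicate 3 lay apart for part of this list. Ptgs2 measured 6.69 CPM there, whereas the other WT libraries gave 65.6 and 63.2 CPM and the IRF4-deficient ones 28.8 to 61.5 CPM. Tnf measured 55.7 CPM there, 99.0 and 121 CPM in the other WT libraries and 28.3 to 51.9 CPM in IRF4-deficient libraries (edgeR adjusted p = 0.0507). Tnf was called lower in 6 of 15 alternatives. With all 6 libraries these were DESeq2 (adjusted p = 0.0127), limma-voom (0.00159), edgeR with upper-quartile factors (0.0402) and edgeR with no robust shrinkage (0.000942). The others were edgeR without IRF4-deficient replicate 3 (0.046) and without WT replicate 3 (8.78e-05), and the range reached 0.192. Without WT replicate 3, 5 genes of the list were called lower, with Tnf and Zc3h12a (0.048) added. The same omission left the log2 fold changes of Il1rn and Il1b at 1.68 and -0.74. Nfkbia (125 and 103 CPM), Relb (184 and 181 CPM), Icam1 (180.5 and 203 CPM), Nfkb2 (107 and 102 CPM) and Bcl3 (104 and 83.4 CPM) were not called, except that Bcl3 was called higher without WT replicate 3 (0.0173).

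**Figure D5:**
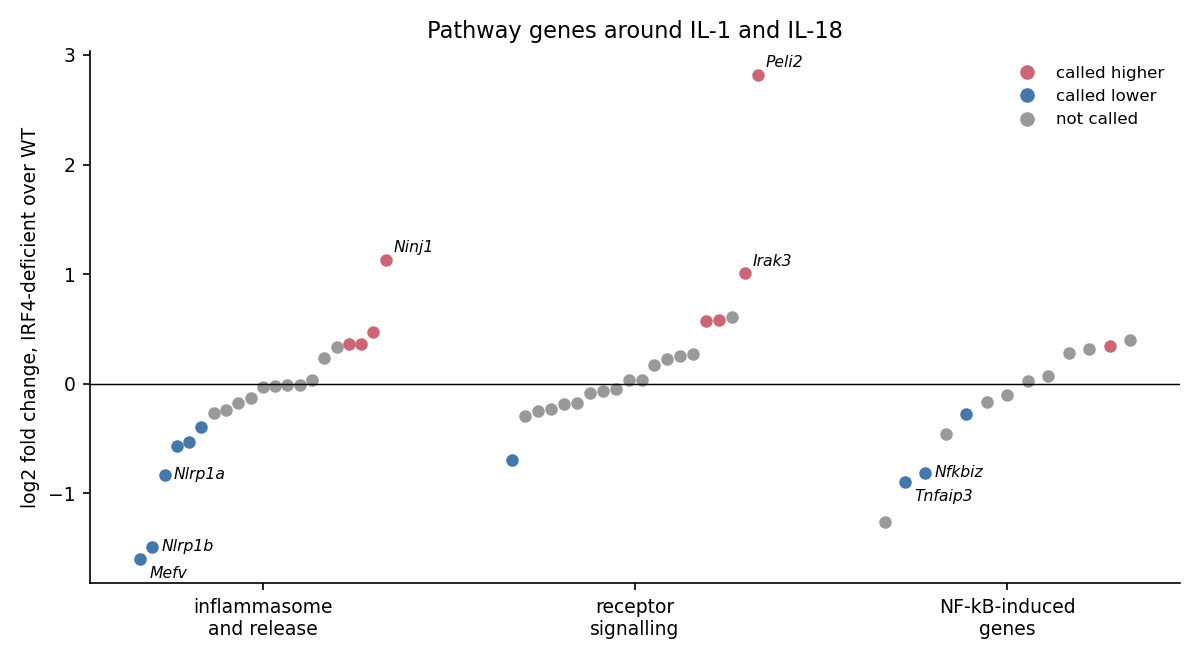
Log2 fold change of IRF4-deficient over WT (vertical axis) for each tested gene of 3 lists, ordered by value within a list, with called genes in red (higher) or blue (lower) and named where past 0.75 in size. Mefv and Nlrp1b are the lowest of the inflammasome list and Peli2 the highest of the signalling list, while most genes lie near 0.

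IL-1 family genes are also expressed by other myeloid cells, so marker lists were measured in the same libraries. The counts called stand beside 9.87% called higher and 10.5% called lower over all tested genes. Of 14 markers of cDC2s or of dendritic cells at large, 8 were called lower and 2 higher (Itgax 1.22-fold and Itgam 3.03-fold). The 8 were Cd4 (4.23-fold), Cd209a (2.48-fold), Zbtb46 (1.92-fold), Flt3 (1.65-fold), Dpp4 (1.44-fold), H2-Aa (1.23-fold), H2-Ab1 (1.19-fold) and Cd74 (1.16-fold). Sirpa, Clec4a4, Mgl2 and Esam were not called. The list summed to 31055 to 32354 CPM in IRF4-deficient against 33864 to 37665 CPM in WT libraries. Most of this sum was Cd74, H2-Aa and H2-Ab1, with means of 12046, 8573 and 5184 CPM in IRF4-deficient libraries. Of 10 tested monocyte markers 5 were called higher in IRF4-deficient libraries, and their summed level was 2370 to 3021 CPM against 1024 to 1405 CPM in WT. The 5 were Cx3cr1 (4.21-fold), Treml4 (3.19-fold), Ccr2 (3.07-fold), Lyz2 at 833 to 980 CPM against 345 to 461 CPM, and Csf1r at 566 to 860 CPM against 293 to 351 CPM. Ace, which was not called, stood at 237 to 429 CPM against 25.5 to 95.8 CPM, while the classical monocyte gene Ly6c2 stood at 0.636 to 3.34 CPM over all libraries. Of 13 red pulp macrophage markers 6 were called higher and 1 lower. The 1 called lower was Emr1, at 182 to 209 CPM in IRF4-deficient against 276 to 328 CPM in WT libraries. The list summed to 1779 to 3222 CPM against 1245 to 1599 CPM. In this sum IRF4-deficient replicate 3 was highest, as with Vcam1 at 1106 CPM and Hmox1, which was not called, at 601 CPM. Without that library Il1rn and Il1r1 had log2 fold changes of 1.81 and 2.22, and Il1b of -0.69, all still called by edgeR. The lowest IRF4-deficient sum, 1779 CPM, was also above the highest WT sum, 1599 CPM. Leaving out replicate 3 is therefore no test of the part of macrophage RNA. Of 3 tested neutrophil markers 2 were called higher, Csf3r and Mmp9, and the list summed to 73.8 to 92.5 CPM against 23.4 to 45.5 CPM. The abundant neutrophil gene S100a8 was at 0 to 0.247 CPM in IRF4-deficient and 0.41 to 3.36 CPM in WT libraries, S100a9 at 0.247 to 0.828 and 0.968 to 3.73 CPM, and Camp was at 0 in all IRF4-deficient libraries. Of 8 cDC1 markers 6 were called higher, with a sum of 340 to 468 CPM against 212 to 233 CPM. Of 7 B cell markers 1 was called in each direction (sum 99.7 to 136 against 70.4 to 137 CPM), and of 5 tested T and NK cell markers 1 was called higher (53.4 to 101 against 39.5 to 42.6 CPM), Il7r. Of 5 tested plasmacytoid dendritic cell markers 1 was called in each direction (202 to 226 against 211 to 251 CPM). Siglech was called higher (2.43-fold) and Ccr9 lower (1.66-fold), while Tcf4, with means of 127 and 126 CPM, was the largest part of the sum. Of 2 tested erythroid and platelet markers neither was called (5.34 to 13.7 against 10.8 to 16.0 CPM). The basophil gene Prss34 was at 0 in all IRF4-deficient libraries and at 0 to 0.909 CPM in WT. The part of the monocyte, macrophage, neutrophil and cDC1 markers in the changes of Il1rn, Il1r1, Il1b and Il1r2 was not tested.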

How the data were processed

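RNA of 3 IRF4-deficient and 3 WT cDC2 samples was sequenced. The authors deposited raw counts per gene symbol, and the submitters' processing notes name STAR, HTSeq, DESeq2 and mm10, with versions, annotation and strand setting not given in the sources used here. WT columns were matched to sample titles through the labels' source names. Of 14535 rows, 7 were 0 in all libraries, and no column was left unused.

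edgeR 4.0.16 (R 4.3.3) kept 11934 genes by filterByExpr, scaled libraries by TMM and tested genotype with robust quasi-likelihood fits, adjusting p-values over all tested genes (Benjamini-Hochberg). The prior count was 0.125. SEs and 95% intervals come from the F statistic. The common biological coefficient of variation was 0.156. The steps were tested on simulated data with known changes. Ratios within a library used raw counts and an exact permutation test.

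The 8 genes and the lists were chosen with earlier results of these data known. All 8 were named. From the other lists called genes were named, and up to 5 more by mean CPM, or after their values were seen where single libraries are discussed (Ptgs2, Tnf, Traf6) a gene is central to the pathway, or a call changed when a library was left out. Markers named beyond the 3 highest of a list were also chosen so. Pattern neighbours needed a mean of 10 CPM and no predicted model. Alternatives were DESeq2 1.42.0, its size factors, upper-quartile factors, limma-voom (limma 3.58.1), 2 other filters, no robust shrinkage, a replicate block, removal of Rn45s and Malat1, and leaving out each library.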

Additional observations from a re-analysis of the deposited data

How the results depend on the processing

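The calls of Il1rn, Il1r1 and Il1b by adjusted p held in all 15 alternatives, with log2 fold changes of 1.68 to 1.98, 1.99 to 2.50 and -0.79 to -0.69, and Il1a, Il1rap, Il18 and Il18bp were called in none of those that tested them. Of 999 values for 67 genes of the lists, 951 kept their direction and side of the threshold or stayed uncalled, and none turned the direction of a called gene. The count of the 8 genes called lower was 1, through Il1r2, with DESeq2, with limma-voom, with the replicate block and without Rn45s and Malat1, and 1 to 2 when a library was left out. With the replicate block, edgeR called 0 of the further family genes higher (1 at an unadjusted p under 0.05). It also called 0 of the NF-kB-induced genes higher (3 at an unadjusted p). DESeq2, which was run only without a block, called 1 higher in each of these lists. The filter of 5 CPM gave 0 further family genes in edgeR (0 at an unadjusted p), since it removed Il18r1, and also removed Il1a and Il1rap. Signalling genes called lower numbered 2 with upper-quartile factors and with that filter. Leaving out a library gave 0 to 1 further family genes higher, 1 to 2 signalling genes lower, 2 to 4 inflammasome genes higher, and 0 to 1 and 2 to 5 NF-kB-induced genes higher and lower. The log2 difference in the Il18bp to Il18 ratio was -0.070 to 0.22 when a library was left out, lowest without IRF4-deficient replicate 3. Where no reason is given, the cause was not tested.

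Equal replicate numbers do not mark a shared animal or day in the labels. The replicate block joins libraries by the number in their titles, which for WT differs from the number in the column name. Deviations of the libraries so joined correlated at -0.0048, 0.051 and -0.011. These values cannot tell whether any libraries shared a day or batch. Low counts limit the precision for Il1a, Il1r1, Il1rap, Il1rl2, Il1rl1 and Il1f9, the last 2 of which were not tested, and 3 libraries per genotype limit all tests.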
